A study of Mus musculus with 5 samples.

Results

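The genes of the interferon-gamma (IFN-γ) receptor and its signalling chain were examined in RNA-seq counts of cells sorted from mouse EO771 tumours, a breast cancer line implanted orthotopically. The 9 genes were taken by name: the cytokine Ifng, the receptor chains Ifngr1 and Ifngr2, the kinases Jak1 and Jak2, the transcription factors Irf1, Irf8 and Batf2, and the feedback inhibitor Socs1. All 9 were among the 46983 genes listed in the count tables, and all 9 passed the low-count filter that left 14580 genes to test. The Treg-ablated group (2 libraries) came from tumours dosed 2 times with diphtheria toxin, each time with 50 µg per kg, to remove regulatory T (Treg) cells and sorted on day 4, and the control group (3 libraries) from tumours left untreated. The strain is given for every library as C57/BL6. The labels used here name no genotype, allele or age, and the controls received no toxin, so an effect of the toxin and one of Treg loss cannot be told apart. No day is given for the controls, so a difference in the time of sorting cannot be told apart either. Whether each library stands for another animal is not stated, and the p-values therefore describe how far these libraries scatter, which may be technical.

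IFN-γ is a cytokine made mainly by T cells and NK cells. It binds a receptor built from IFNGR1, the chain that holds the ligand, and IFNGR2, the chain needed to pass the signal on. The kinases JAK1 and JAK2 sit on these chains and pass the signal on by phosphorylation. In the nucleus it reaches short DNA elements called GAS sites, among them one at the gene of IRF1. IRF1 in turn binds ISRE elements at further target genes, and SOCS1, itself induced by the signal, inhibits the JAK kinases. In macrophages this pathway drives the classically activated state.

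Library totals ran from 13122668 to 20156835 counts. The cell type named in the labels, macrophages gated as CD45+ CD11b+ Ly6G- F4/80+, was checked against its markers, which did not bear out the label. Of the gate genes, Adgre1, which encodes F4/80, had 5.73 to 9.87 CPM (counts per 1000000 of the scaled library size), Ptprc (CD45) 22.1 to 33.0 CPM and Itgam (CD11b) 12.2 to 19.0 CPM, and Ly6g had 0 to 3 counts. The 15 macrophage markers together summed to 132.8 to 243.9 CPM per library and 12 fibroblast markers to 9965 to 12130 CPM. Of the fibroblast markers, Col3a1 alone gave 7467 to 9556 CPM and Fap, the lowest, 1.81 to 2.58 CPM. The 10 markers of epithelial or tumour cells summed to 270.9 to 331.3 CPM, above the macrophage sum in every library. Most of that sum was Krt18 (179.6 to 222.4 CPM) and Krt8 (74.75 to 89.84 CPM), whereas Epcam had 0.0697 to 0.630 CPM. The list as a whole was therefore not above the macrophage list gene by gene. The sums of the marker lists are not scaled for gene length. Fewer cells of a type and less RNA per cell cannot be told apart in these bulk libraries, so no value below is assigned to a cell type. Foxp3, which marks Treg cells, was counted 1 and 5 times after ablation and 3, 9 and 3 times in controls, too rarely to check the ablation.

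Of the 9 genes, 6 rose after Treg ablation (Ifng, Ifngr1, Irf1, Irf8, Socs1 and Batf2), 0 fell and 3 (Ifngr2, Jak1 and Jak2) did not pass an adjusted p of 0.05 (edgeR's quasi-likelihood test with Benjamini-Hochberg adjustment over all genes). Over all genes tested, 25.8% passed in either direction, 13.5% as higher and 12.3% as lower. Rises of more than 1.5-fold were measured for 4 of the 9 genes (Ifng, Batf2, Socs1 and Irf1), against 3.95% of all genes tested. The median log2 fold change was 0.45 over the 9 genes and -0.01 over all genes tested. The cytokine and the induced transcription factors and inhibitor moved most, and the receptor chains and kinases changed by at most 1.18-fold. In 6 of the 9 genes both Treg-ablated libraries lay above all 3 controls. Groups lay apart in this way for 26.9% of all genes tested, and with the Treg-ablated libraries lower for 25.6%, together 52.5%.

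Upstream sequences are shown for the transcription factor genes Irf1 and Irf8 and the inhibitor gene Socs1, which rose and held a GAS or ISRE match in the window searched. Ifng also rose and held a match, which is given by its position alone. The RefSeq promoter table (GRCm38.p6) gives windows of 250 bases before to 50 after a transcription start, and 8 of the 9 genes matched it with 10 windows. The search used GAS as TTCNNNGAA, which reads the same on both strands, and ISRE as GAAA, any 2 bases and GAAA, on either strand. These short motifs occur in 8.3% and 3.44% of all 32851 windows of that length in the table. The stretches below run 5′ to 3′ on the gene's strand and end at the base before the start. Capitals mark the motif matches.
Irf1: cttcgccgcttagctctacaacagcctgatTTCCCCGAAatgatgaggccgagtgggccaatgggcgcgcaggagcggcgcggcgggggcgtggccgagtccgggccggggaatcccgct
Irf8: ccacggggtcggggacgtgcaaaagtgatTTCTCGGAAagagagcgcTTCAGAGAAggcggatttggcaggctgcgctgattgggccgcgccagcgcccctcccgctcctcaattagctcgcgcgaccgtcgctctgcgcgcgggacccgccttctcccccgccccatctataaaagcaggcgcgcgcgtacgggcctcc
Socs1: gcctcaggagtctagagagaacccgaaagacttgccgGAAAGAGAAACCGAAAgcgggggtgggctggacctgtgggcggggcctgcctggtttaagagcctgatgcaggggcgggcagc

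The Irf1 stretch (chr11:53769894-53770013, plus strand) held 1 GAS match, from 90 to 82 bases before the start. The Irf8 stretch (chr8:120736158-120736357, plus strand) held 2 GAS matches, which begin 171 and 153 bases before the start. The Socs1 stretch (chr16:10785537-10785656, minus strand) held 2 ISRE matches that overlap each other and span 83 to 68 bases before the start. The second window of Irf1 and that of Irf8, for another start of each gene, held neither motif. The Ifng window held 1 GAS match, 249 bases before the start, and those of Ifngr1, Ifngr2, Jak1 and Jak2 held neither motif. Batf2 had no window in the table. A match of letters is a description and not a measured binding site.

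**Figure D1:**
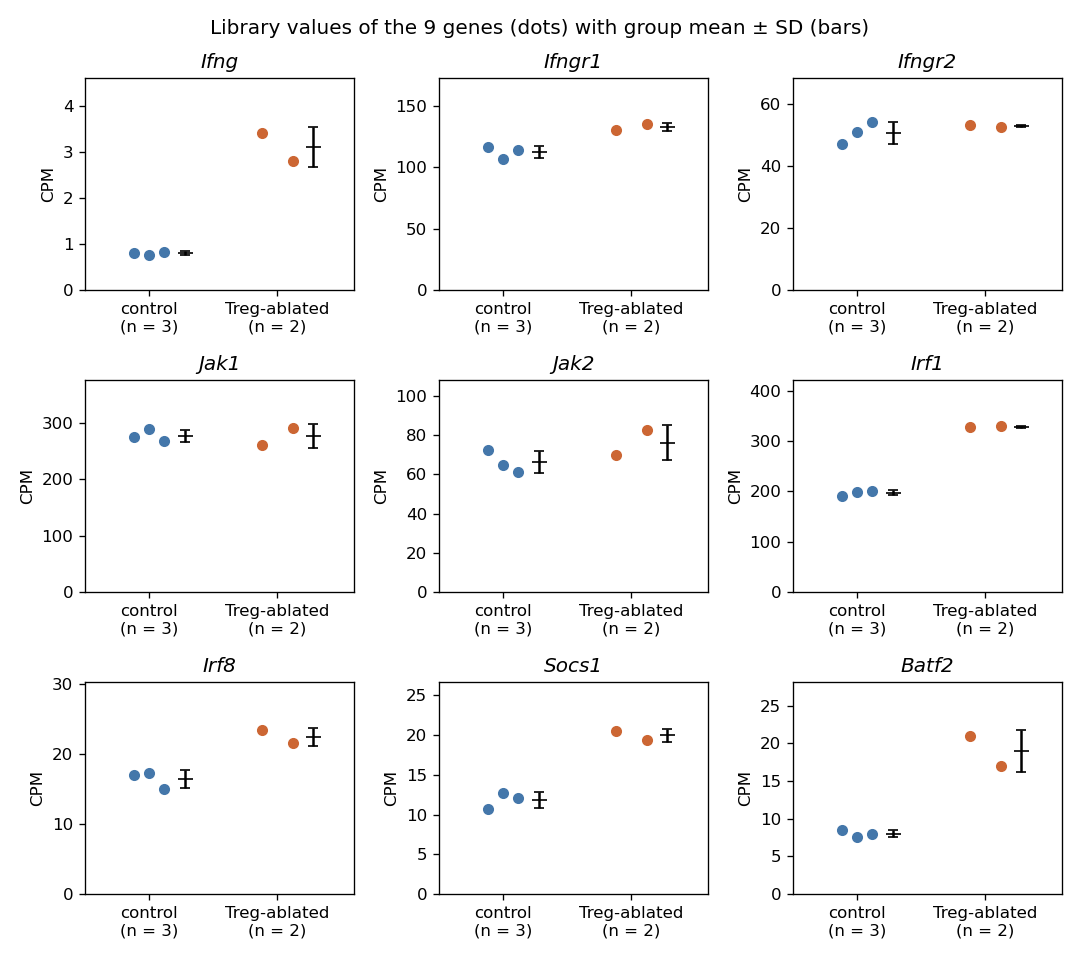
CPM of each of the 9 genes (vertical axes from 0) in the 3 control libraries (blue) and the 2 Treg-ablated libraries (orange), with the group mean ± SD in black. The groups lie apart for Ifng, Ifngr1, Irf1, Irf8, Socs1 and Batf2 and overlap for Ifngr2, Jak1 and Jak2.

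The ligand gene Ifng (ENSMUSG00000055170, chromosome 10, 118441047 to 118445892, plus strand, GRCm38 as for all positions here) was the least abundant of the 9 and had the largest fold change. After ablation, replicates 1 and 2 gave 54 and 37 counts of Ifng, whereas control replicates 1, 2 and 3 gave 12, 15 and 12. In CPM these were 3.40 and 2.79 against 0.806, 0.751 and 0.836. Both Treg-ablated libraries were more than 3-fold above every control, and the controls lay close together. The means were 3.10 ± 0.434 CPM (SD, n = 2) and 0.798 ± 0.0430 CPM (n = 3). Ifng rose by a log2 fold change of 1.96 (SE 0.251, edgeR adjusted p = 0.000791), which is 3.90-fold. The ratio of summed counts, 91 against 39 and scaled by library size, was 3.94 with an exact 95% interval of 2.68 to 5.90 that covers counting error only.

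Most markers of the cells known to make IFN-γ rose with Ifng, beside 13.5% higher of all genes tested. Of 12 T cell markers 11 rose and 1 (Cd4) did not pass, and their summed level was 51.3 to 56.0 CPM in the Treg-ablated and 15.7 to 19.6 CPM in the control libraries. Of 11 markers of NK and cytotoxic cells 9 rose and 2 (Ncr1 and Klrb1c) did not pass, with sums of 79.6 to 81.2 against 27.1 to 30.5 CPM. Ncr1 and Klrb1c had log2 fold changes of 0.27 and 0.48 (edgeR adjusted p = 0.555 and 0.325), and their groups overlapped. No marker of either list was at 0. The part of these cells in the rise of Ifng was not tested.

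Of the genes that favour IFN-γ production several rose and 0 fell. The list of 11 held IL-12, IL-18 and IL-27 subunits, their receptors and the transcription factors T-bet and EOMES, and 9 were tested. Of these 4 rose, 0 fell and 5 did not pass, beside 13.5% higher and 12.3% lower of all genes tested. Their median log2 fold change was 0.77. In every library 10 of the 11 lay under 7 CPM. The exception, named after its values were seen, was Il18rap, an IL-18 receptor chain, with 390.6 and 436.6 CPM after ablation and 431.6, 408.0 and 389.6 CPM in the controls (log2 fold change 0.01, SE 0.0759, edgeR adjusted p = 0.917). Il18r1, the other chain of that receptor, rose from 1.21 ± 0.202 to 3.33 ± 0.0158 CPM (adjusted p = 0.00214). Eomes, a transcription factor of cytotoxic lymphocytes, rose 3.09-fold to 1.72 ± 0.0231 CPM (adjusted p = 0.00584). Tbx21, which encodes T-bet, and Il12b, which encodes the p40 chain of IL-12, rose 2.13-fold and 2.03-fold from under 1 CPM. The calls of Tbx21 and Il12b ended with DESeq2 (adjusted p = 0.195 and 0.174). They also ended without Treg-ablated replicate 2 (0.168 and 0.186), control replicate 2 (0.0949 and 0.108) or control replicate 3 (0.0554 and 0.0542), and that of Tbx21 without Treg-ablated replicate 1 (0.0617). Other interferon genes were close to absent: of 7 listed, 5 had 0 counts in every library (Ifna2, Ifna4, Ifnl2, Ifnl3 and Ifne) and 0 passed the filter.

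Of the receptor chains, Ifngr1 was slightly higher after ablation and Ifngr2 was not called. Ifngr1 (ENSMUSG00000020009, chromosome 10, 19591949 to 19610229, plus strand), the ligand-binding chain, had 130.8 and 135.5 CPM in the Treg-ablated libraries against 116.6, 107.1 and 113.8 CPM in the controls. The groups did not overlap, with 130.8 CPM in the lowest Treg-ablated and 116.6 CPM in the highest control library. Ifngr1 rose by a log2 fold change of 0.24 (SE 0.0673, 1.18-fold, edgeR adjusted p = 0.0239). The call ended without Treg-ablated replicate 2 and without control replicate 2 (adjusted p = 0.0902 and 0.126). It also ended with DESeq2 (adjusted p = 0.0508), while 11 of 16 alternatives kept it.

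Ifngr2 (ENSMUSG00000022965, chromosome 16, 91547072 to 91565169, plus strand), the chain that recruits JAK2, had 53.3 and 52.7 CPM against 47.0, 50.9 and 54.2 CPM. Both Treg-ablated values lay inside the control range. The log2 fold change was 0.06 (SE 0.0787, edgeR adjusted p = 0.586), and it was not called in any of the 16 alternatives. Within each library the Ifngr2 counts were 40.7% and 38.9% of the Ifngr1 counts after ablation and 40.4%, 47.6% and 47.6% in the controls. The ranges overlapped, and the difference in mean log2 ratio was -0.18 (exact two-sided permutation p = 0.3, where 2 against 3 libraries cannot go below 0.1). Of 4 other interferon receptor chains 3 were tested and 0 passed: Ifnar1 and Ifnar2, the receptor of type I interferon, and Il10rb, which is shared with the type III receptor, stood at -0.03, 0.07 and 0.09 on the log2 scale (SE 0.0814, 0.0915 and 0.0943).

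The kinase genes did not pass. Jak1 (ENSMUSG00000028530, chromosome 4, 101152367 to 101265282, minus strand), the kinase on IFNGR1 and on many cytokine receptors, had 261.1 and 291.8 CPM after ablation and 274.9, 289.4 and 268.2 CPM in the controls. The 2 Treg-ablated values lay on either side of the controls, the lowest and the highest of the 5. The log2 fold change was -0.01 (SE 0.0725, edgeR adjusted p = 0.959). Jak2 (ENSMUSG00000024789, chromosome 19, 29251828 to 29313080, plus strand), the kinase on IFNGR2, had 69.9 and 82.5 CPM against 72.2, 65.1 and 61.1 CPM. Only Treg-ablated replicate 2 exceeded all controls. The log2 fold change was 0.20 (SE 0.0933, edgeR adjusted p = 0.134). Leaving out Treg-ablated replicate 1 made Jak2 pass as higher (log2 fold change 0.32, adjusted p = 0.0369), as did an offset on gene length (0.22, adjusted p = 0.0367), while the other 14 alternatives did not.

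Counts of Jak2 relative to Jak1 did not overlap between the groups, at 26.8% and 28.3% after ablation and 26.3%, 22.5% and 22.8% in the controls. The gap between the lowest Treg-ablated and the highest control library was small, and the difference in mean log2 ratio was 0.21 (exact two-sided permutation p = 0.2). The other JAK kinases also did not pass: Jak3, which serves receptors with the common gamma chain, and Tyk2, which serves the type I interferon receptor, stood at 0.21 (SE 0.0788) and -0.16 (SE 0.0738) on the log2 scale. Jak3 passed as higher with an offset on GC content (log2 fold change 0.35, adjusted p = 0.0097) and with one on gene length (0.23, adjusted p = 0.0270).

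Below the kinases, of 6 STAT genes 2 rose, 2 fell and 2 did not pass, beside 13.5% higher and 12.3% lower of all genes tested. Their median log2 fold change was -0.04. Numbers this small are not read as a result about the family. Stat2, a factor of the type I interferon pathway, rose 1.33-fold (edgeR adjusted p = 0.00292). Stat4, which acts below IL-12, rose 2.47-fold from 1.01 ± 0.262 CPM (adjusted p = 0.0124) but did not pass once Treg-ablated replicate 2 was left out (adjusted p = 0.0928). Stat5b and Stat6 fell 1.18-fold and 1.17-fold, and both calls ended with the GC offset (adjusted p = 0.151 and 0.267). They also ended without Treg-ablated replicate 1 (0.111 and 0.192), control replicate 1 (0.0554 and 0.0789) or control replicate 2 (0.137 and 0.0949). That of Stat5b ended with DESeq2 (0.0641) and without Treg-ablated replicate 2 (0.0791) and that of Stat6 without control replicate 3 (0.0512). Stat6 was added after its value was seen.

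Irf1 (ENSMUSG00000018899, chromosome 11, 53770014 to 53778374, plus strand), the transcription factor whose upstream GAS match is printed above, was the most abundant of the 9 genes per kilobase of exon. It had 326.9 and 328.8 CPM in the Treg-ablated libraries and 191.5, 197.7 and 201.6 CPM in the controls. Replicates of each group lay close together and the groups were far apart. The means were 327.8 ± 1.36 CPM (n = 2) and 197.0 ± 5.09 CPM (n = 3). Irf1 rose by a log2 fold change of 0.74 (SE 0.0620, edgeR adjusted p = 7.95e-05), which is 1.67-fold, and ranked 32 by p among the 14580 genes. All 16 alternatives called it higher, with log2 fold changes from 0.72 to 0.84.

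Gm17334, a gene on the opposite strand inside Irf1 (chromosome 11, 53772281 to 53773187), shares 135 exonic bases with it, 3.4% of the Irf1 exon length. The recorded counting used no strand setting, so reads from the pair cannot be told apart where they overlap. Gm17334 had 132 and 120 counts after ablation and 56, 69 and 58 in the controls, small beside the 2851 to 5185 counts of Irf1. It rose by a log2 fold change of 1.22 (SE 0.145, edgeR adjusted p = 0.000569). Batf2 shares 51 exonic bases with Arl2 and Jak1 shares 4 with Raver2, while the other 6 genes share none.

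Irf8 (ENSMUSG00000041515, chromosome 8, 120736358 to 120756694, plus strand), a transcription factor of monocytes, dendritic cells and B cells, had 23.4 and 21.6 CPM after ablation. The controls had 17.00, 17.33 and 14.98 CPM. The groups did not overlap, and control replicate 3 was the lowest. Irf8 rose by a log2 fold change of 0.45 (SE 0.102, 1.37-fold, edgeR adjusted p = 0.0105). The call ended without Treg-ablated replicate 1 (log2 fold change 0.39, adjusted p = 0.0521). Relative to Irf1, Irf8 counts were 7.16% and 6.56% after ablation and 8.87%, 8.76% and 7.43% in the controls. These values did not overlap, with a difference in mean log2 ratio of -0.28 (exact two-sided permutation p = 0.2).

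Markers of the cell types known for Irf8 did not all move the same way. The counts below stand beside 13.5% higher and 12.3% lower of all genes tested. Of 10 conventional dendritic cell markers 9 were tested, of which 1 rose (Ccr7), 2 fell (Wdfy4 and Cd209a) and 6 did not pass, and their summed level was 72.6 to 74.5 CPM after ablation against 73.8 to 80.0 CPM in the controls. Of 8 B cell markers 7 were tested and 5 rose, with sums of 25.5 to 41.0 against 5.51 to 6.69 CPM. The most abundant of these was Ighm, the immunoglobulin mu chain, and Ms4a1 was at 0 in all 3 controls. Of 7 plasmacytoid dendritic cell markers 3 were tested and 1 rose (Tcf4, with 338.4 and 345.7 against 247.3, 241.1 and 242.2 CPM). Siglech, a defining marker of those cells, had 0.296 CPM after ablation and 0.298 CPM in the controls, on average. With Tcf4 so far above Siglech, its rise is not read as one of those cells. Of 7 monocyte markers 1 rose (Ly6c2), 4 fell and 2 did not pass, with sums of 563.0 to 696.0 against 773.1 to 975.1 CPM that did not overlap. Most of that sum was Vcan, a matrix proteoglycan that fibroblasts also make (484.3 and 634.4 against 862.4, 770.3 and 681.0 CPM). Macrophage markers, of which 13 of 15 were tested, fell in 9 cases and rose in 0, with sums of 132.8 to 147.5 against 225.1 to 243.9 CPM. The part of any of these cells in the rise of Irf8 was not tested.

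Of 7 other IRF family genes listed, 6 were tested: 2 rose, 1 fell and 3 did not pass, beside 13.5% higher and 12.3% lower of all genes tested. The median log2 fold change was 0.05. Numbers this small are not read as a result about the family. Irf2, which competes with IRF1 for the same DNA element, rose 1.31-fold (adjusted p = 0.0139). Irf4, a factor of activated lymphocytes, rose 2.16-fold from 1.096 ± 0.0488 CPM (adjusted p = 0.0143), but did not pass once Treg-ablated or control replicate 2 was left out (adjusted p = 0.121 and 0.0632) or with DESeq2 (0.0790). Irf7, the amplifier of type I interferon production, fell 1.32-fold (log2 fold change -0.40, SE 0.0796, edgeR adjusted p = 0.00548). Its call ended with the GC offset together with the replicate number as a block (edgeR adjusted p = 0.0885). Irf5 and Irf9, the latter a DNA-binding partner of STAT2, did not pass, at -0.20 (SE 0.106) and 0.11 (SE 0.0695) on the log2 scale.

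Batf2 (ENSMUSG00000039699, chromosome 19, 6140983 to 6172476, plus strand), a basic leucine zipper factor induced in macrophages by IFN-γ, had the second largest rise of the 9. It had 20.9 and 17.0 CPM in the Treg-ablated libraries and 8.47, 7.61 and 7.94 CPM in the controls. Both Treg-ablated libraries were at least 2-fold above each control. The means were 18.9 ± 2.80 CPM (n = 2) and 8.01 ± 0.430 CPM (n = 3), a log2 fold change of 1.25 (SE 0.123, 2.38-fold, edgeR adjusted p = 0.000229). All 16 alternatives called it higher, with log2 fold changes from 1.09 to 1.40.

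Of 7 genes for partners of BATF and IRF8 proteins 6 were tested, and their median log2 fold change was 0.21. Of these 2 rose, 1 fell and 3 did not pass, beside 13.5% higher and 12.3% lower of all genes tested. Jun, a leucine zipper partner of BATF proteins, rose from 988.0 ± 30.2 to 1357 ± 38.2 CPM (adjusted p = 0.00167). Jund rose 1.23-fold (adjusted p = 0.0194), but did not pass once Treg-ablated or control replicate 1 was left out (adjusted p = 0.0764 and 0.0579). Spi1, which encodes the myeloid factor PU.1, fell 1.48-fold (log2 fold change -0.56, SE 0.145, adjusted p = 0.0179). Its call ended when replicate 2 of either group was left out and with the GC offset (adjusted p = 0.107, 0.0692 and 0.0616). The related Spib had a log2 fold change of 0.997 (SE 0.363) and did not pass.

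Socs1 (ENSMUSG00000038037, chromosome 16, 10783808 to 10785536, minus strand), the inhibitor of the JAK kinases whose overlapping ISRE matches are printed above, had 20.6 and 19.4 CPM after ablation. The controls had 10.8, 12.7 and 12.1 CPM. The lowest Treg-ablated library was above the highest control by more than the spread within either group. The means were 19.97 ± 0.825 CPM (n = 2) and 11.84 ± 1.003 CPM (n = 3), a log2 fold change of 0.75 (SE 0.107, 1.68-fold, edgeR adjusted p = 0.00128). All 16 alternatives called it higher, with log2 fold changes from 0.69 to 0.90. Socs1 counts were 6.29% and 5.90% of the Irf1 counts after ablation and 5.61%, 6.43% and 5.98% in the controls. The ranges overlapped, and the difference in mean log2 ratio was 0.02 (exact two-sided permutation p = 0.9).

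The other negative regulators were mostly not called. Of 16 members, covering the remaining SOCS genes, JAK and STAT phosphatases, PIAS genes and Usp18, 3 rose, 2 fell and 11 did not pass. Both numbers are near the 13.5% higher and 12.3% lower of all genes tested and are not read as a result about the list, whose median log2 fold change was 0.12. Ptpn2, a phosphatase that acts on JAK1, rose 1.35-fold (log2 fold change 0.43, SE 0.0806, edgeR adjusted p = 0.00432). Pias1, a member of the PIAS family of inhibitors, and Cish, a SOCS family member below STAT5, rose 1.25-fold and 1.82-fold. Pias3 and Ptpn1 fell, with log2 fold changes of -0.26 and -0.22. Pias1, Pias3 and Ptpn1 did not pass with the GC offset (adjusted p = 0.120, 0.212 and 0.504). Pias1, Cish, Pias3 and Ptpn1 did not pass without control replicate 2 (adjusted p = 0.0528, 0.0750, 0.145 and 0.118). Cish also did not pass without Treg-ablated replicate 1 (0.0614), Pias3 without either Treg-ablated library (0.0706 and 0.0864), and Ptpn1 without any single library (0.0577 to 0.194). With DESeq2 the calls of Pias1, Cish and Ptpn1 ended (0.0563, 0.0753 and 0.0689), and with library size alone that of Ptpn1 (0.0729). Ptpn1 was named after its value was seen. Socs3, the inhibitor below STAT3, had 144.4 ± 3.35 against 128.3 ± 5.17 CPM, a log2 fold change of 0.17 that did not pass (SE 0.0662, adjusted p = 0.0832). It passed as higher with the GC offset (log2 fold change 0.32, adjusted p = 0.00783) and with the gene length offset (0.17, adjusted p = 0.0372).

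Over the 8 lists of surrounding pathway genes, 48 of 60 were tested, of which 13 rose, 6 fell and 29 did not pass, beside 13.5% higher and 12.3% lower of all genes tested. Their median log2 fold change was 0.13. The number higher was 8 with DESeq2 and 8 without control replicate 2. The number lower was 1 with the GC offset, and 1 to 4 when a single library was left out. Targets of IFN-γ, a list already known to rise in these libraries when it was chosen, were higher in 17 of 20, lower in 0 and not called in 3, with a median log2 fold change of 1.15. Cxcl10 and Gbp4, which are among those with the smallest p, rose 3.26-fold and 3.62-fold. The 3 not called, named for that reason, were Tap1, Serping1 and Ciita, at 0.19, -0.17 and -0.12 on the log2 scale.

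**Figure D2:**
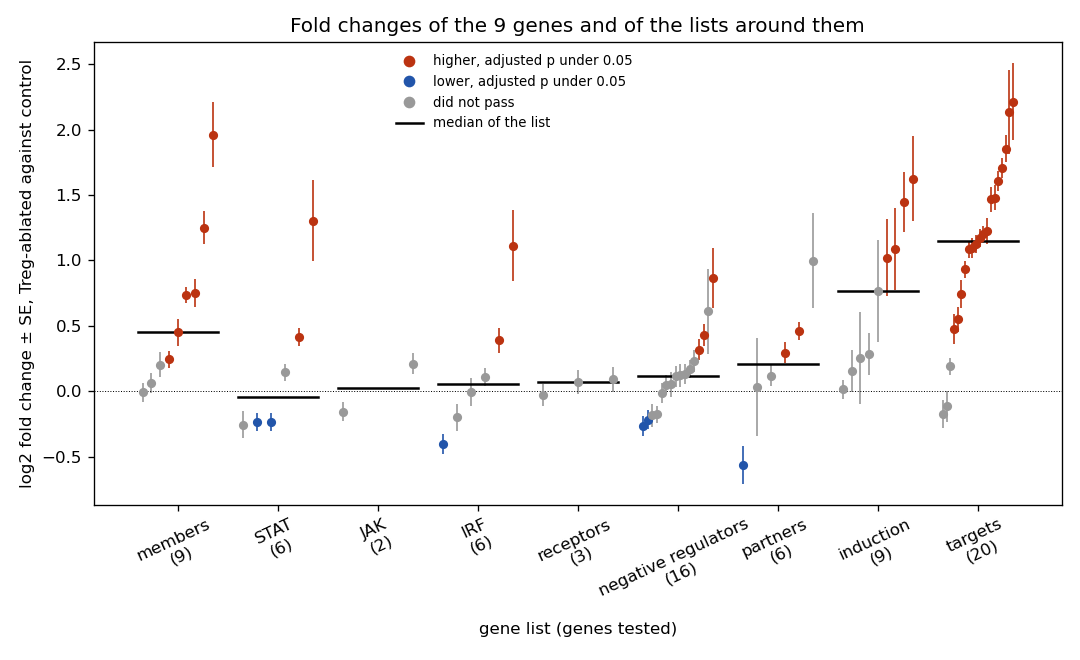
Log2 fold change (± SE, vertical axis) of Treg-ablated against control libraries for each gene tested, by list (horizontal axis, with the number tested). Red points rose, blue points fell and grey points did not pass an adjusted p of 0.05, and the black line is the median of the list. The medians were 0.45 for the 9 genes (members), -0.04 for STAT genes and 1.15 for target genes.

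The order of the levels was compared per kilobase of exon. In the controls it ran from Irf1 (49.5 CPM per kilobase) over Ifngr1 (39.5), Jak1 (38.4), Ifngr2 (15.3), Jak2 (13.2), Socs1 (9.71), Batf2 (3.18) and Irf8 (2.33) to Ifng (0.661). The library ranges of Ifngr1 and Jak1 overlapped, as did those of Ifngr2 and Jak2, so the order within each of these pairs was not resolved. In the Treg-ablated libraries Irf1 stood at 82.5, Ifngr1 at 46.8 and Jak1 at 38.3 CPM per kilobase, with ranges that did not overlap. Socs1 (16.4), Ifngr2 (16) and Jak2 (15.2) were next, and neighbours among these 3 overlapped. Batf2 (7.51), Irf8 (3.19) and Ifng (2.57) followed without overlap. Socs1 lay below Jak2 in the controls with no overlap, whereas their ranges overlapped after ablation.

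**Figure D3:**
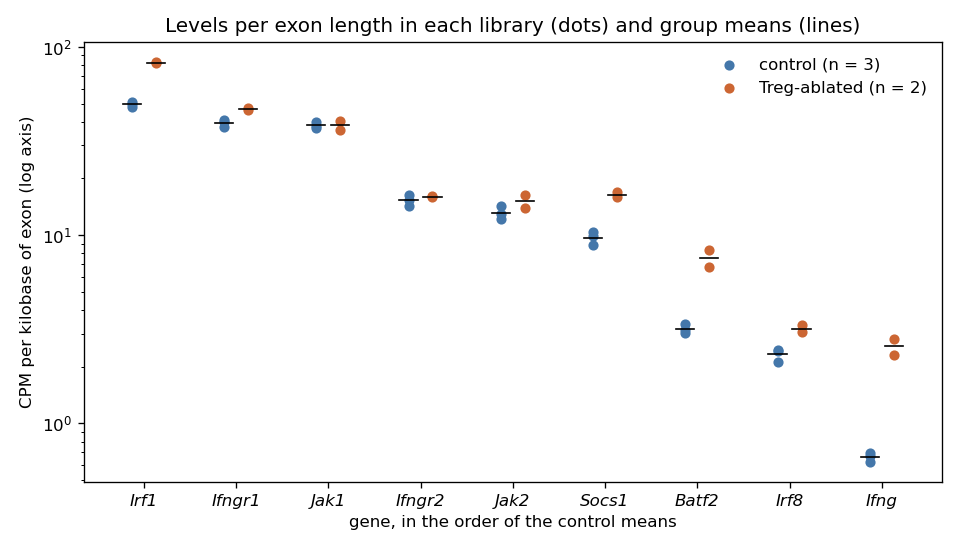
CPM per kilobase of exon (log axis) of the 9 genes in each library, control in blue and Treg-ablated in orange, with group means as lines, ordered by the control mean. Irf1 is highest and Ifng lowest in both groups, and Socs1 lies with Ifngr2 and Jak2 after ablation (16.4, 16 and 15.2 CPM per kilobase).

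Genes with the most similar pattern were sought for 4 of the 9 by the root mean square difference of log2 CPM, centred on each gene's mean over the 5 libraries. A prior count of 2 was used, which shrinks the differences of a gene with few counts, such as Ifng. Predicted genes, Rik clones and pseudogenes were left out, and less abundant genes were admitted for Ifng (12079 searched) than for the others (10857). A pattern over 2 groups of so few libraries is mostly set by the fold change, so this is a description. Nearest to Ifng were Cxcl10, Cxcl9 and Serpinb2 (differences 0.0867, 0.1097 and 0.114), and 2 of these are chemokines of the IFN-γ target list. Nearest to Irf1 were Stx11, Asb13 and Casp1 (0.0223, 0.0360 and 0.0471). Nearest to Socs1 were D5Ertd615e, Ccl22 and Crem (0.0433, 0.0486 and 0.0498). Nearest to Batf2 were Pdgfa, Apol10b and Mt2 (0.0567, 0.0825 and 0.0929).

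**Figure D4:**
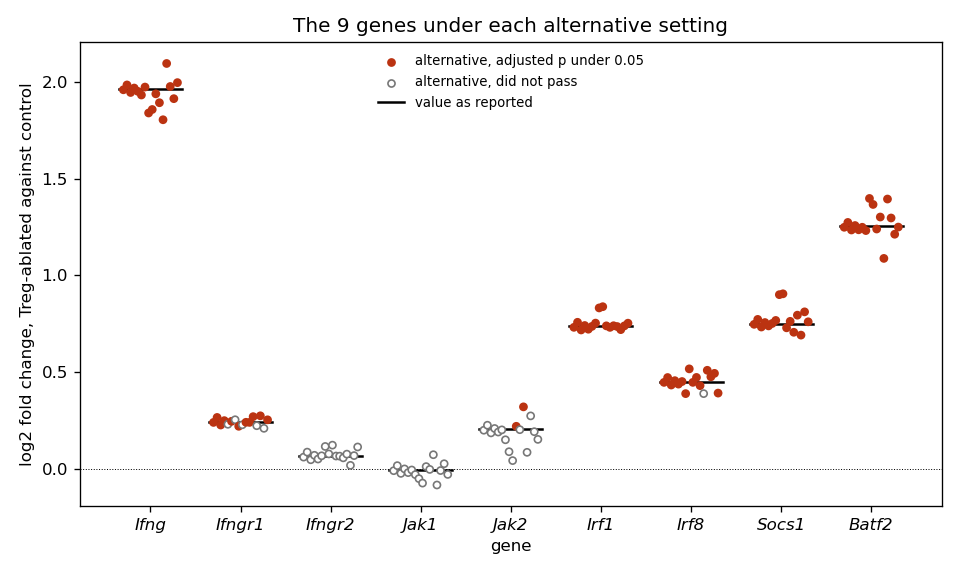
Log2 fold change of each of the 9 genes (black line: as reported) and under 16 alternative settings (points, filled where the adjusted p was under 0.05). Ifng, Irf1, Socs1 and Batf2 passed in all 16, Irf8 in 15, Ifngr1 in 11, Jak2 in 2, and Ifngr2 and Jak1 in 0.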

How the data were processed

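RNA-seq of 5 libraries was analysed, grouped by sample title. The deposited values are raw counts. Per the file headers, featureCounts 1.6.2 counted fragments over the exons of each gene in a filtered annotation (Ensembl 83, GRCm38) with no strand or multi-mapping option. Other tools named in the submitters' processing notes are Subread 1.6.2, Trimmomatic 0.33, DESeq2 1.16.1 and FastQC 0.11.5. Symbols were joined by Ensembl identifier (46488 of 46983 genes). Genes were kept by filterByExpr, scaled by TMM and tested with edgeR 4.0.16 in R 4.3.3 (quasi-likelihood F test, Benjamini-Hochberg adjustment over 14580 genes, threshold 0.05). An SE is the size of the log2 fold change over the root of its F statistic. A count of 3 corresponds to 0.150 to 0.226 CPM, and intervals cover counting error only. Replicates differed beyond sampling noise (chi-square per degree of freedom 4.17 to 7.71), so none was counted as a duplicate.

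The 9 genes and all lists were chosen with earlier results of these data known. Named genes are the 9, the 4 or fewer of each pathway or target list with the smallest p, and some fixed others (Stat2, Irf9, Socs3, Foxp3 and the gate genes). Cell type markers fall outside this rule. Some were the most abundant of their list (Col3a1, Vcan, Ighm and Tcf4), and the others were named without a fixed rule. The lists cover the STAT, JAK and IRF families, interferons and their receptors, negative regulators, BATF and IRF8 partners, IFN-γ induction and targets, and cell type markers. 2 listed genes are not reported here and are left out of the counts. Markers of neutrophils (8 genes, sums of 8.26 to 11.7 CPM) and endothelial cells (8 genes, 17.6 to 21.9 CPM) enter no other statement. Those of epithelial or tumour cells (10 genes, 270.9 to 331.3 CPM) enter only the check of the cell type. The alternatives were scaling by RLE or by library size alone, 2 other filters, DESeq2 1.42.0, limma-voom (limma 3.58.1), the replicate number as a block, lowess offsets on GC content (GENCODE M21 transcripts) and on gene length, thinning, and leaving out each library. Leaving out a Treg-ablated library leaves 1, which is assumed to vary like the controls.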

Additional observations from a re-analysis of the deposited data

How the results depend on the processing

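Of the 9 genes, 5 to 7 were higher and 0 lower under all 16 alternatives, and of the 20 targets 16 to 18 were higher. Ifngr1 did not pass with DESeq2, the replicate block, the GC offset together with the block (adjusted p = 0.0508, 0.123 and 0.127) or when replicate 2 of either group was left out, and Irf8 did not without Treg-ablated replicate 1. Jak1, not called in any fit, changed sign with library size alone (0.0154), with the gene length offset (0.0104), and without Treg-ablated replicate 1 (0.0718) or control replicate 2 (0.0252), with a range of -0.0847 to 0.0718 over single libraries left out. Ifnar2 (-0.0220, range -0.0220 to 0.159) and Ifnar1 (0.0814, range -0.143 to 0.0814) did so without Treg-ablated replicate 1. The log2 ratio of Socs1 to Irf1 was -0.0249 without Treg-ablated replicate 1 and -0.0266 without control replicate 1, with a range of -0.0266 to 0.0720 over all single libraries left out. With library size alone the Treg-ablated levels of Ifngr2 and Irf1 were 16.12 and 83.07 CPM per kilobase. The cause of these changes was not tested.

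Over all genes 1971 were higher and 1787 lower. The numbers were 1296 and 1116 with the replicate block, and 1133 and 1002 with the GC offset and the block. DESeq2 called 1197 higher. Leaving out a single library gave 812 to 1687 higher and 554 to 1538 lower, the lowest without control replicate 2. Of the surrounding pathway genes 13 were higher and 6 lower: 8 were higher with DESeq2, 8 with the replicate block and 8 to 13 with a single library left out. The number lower was 2 with the block, 1 with the GC offset, 1 with both, and 1 to 4 with a single library left out. The title numbers 1 and 2 are shared by the groups, and the deviations of same-numbered libraries had r = -0.226 and -0.0213. The deviations of 2 Treg-ablated libraries from their mean mirror each other, so these values cannot decide whether the numbers mark pairs. The file names number the Treg-ablated libraries 2 and 3, and by those numbers r would be 0.0213 and -0.199. A block on that numbering was not fitted. With the block the calls of Stat5b, Stat6, Irf2, Pias1, Pias3, Ptpn1, Jund, Tbx21 and Il12b ended, and with the block and the GC offset Jak3 and Socs3 passed as higher (adjusted p = 0.0296 and 0.0482). The block leaves 1 residual degree of freedom. A depth of 12 to 15 counts in the controls limits the precision of Ifng.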
